A study of Mus musculus with 3 samples.

Results

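The spots with the strongest expression of upper cortical layer genes were taken from 3 mouse brain sections, 200 from each section and 600 in all, out of 10239 spots with at least 3000 unique molecular identifiers (UMIs). They were picked by a score, the sum over 5 genes (Cux2, Lamp5, Rasgrf2, Calb1 and Stard8) of the natural log of 1 plus the counts per 10000 UMIs of a spot. The 200 best spots made up 6.00% of the 3332 spots of O-Ex that passed the minimum, 5.72% of the 3498 of O-Ctrl and 5.87% of the 3409 of Y-Ctrl. A spot is a small disc of tissue that can hold parts of several cells, so each value below belongs to spots and not to single neurons.

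The sections were cut at 10 µm from fresh frozen brains of C57BL/6J mice and profiled on 10x Visium arrays, which capture polyadenylated RNA over a grid of barcoded spots. O-Ex carries the treatment label exercise, and O-Ctrl and Y-Ctrl are both labelled control. O and Y are taken to stand for old and young from the series title on exercise in aging. The sources used here state neither ages, nor how the mice exercised, nor how many animals there were. Each group is 1 section, so animal, section and condition cannot be told apart, no test was possible, and nothing below has a replicate check. The labels call the molecule nuclear RNA, although the protocol describes whole tissue sections laid on the array.

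The upper layers of the cortex, layers 2 and 3, hold pyramidal neurons that send their axons to other parts of the cortex, among dense apical dendrites and many inhibitory interneurons. Cux2 encodes a transcription factor of these neurons, Lamp5 a membrane protein of vesicles, Rasgrf2 an exchange factor for Ras, Calb1 a calcium-binding protein, and Stard8 a protein with a lipid transfer domain. Upper layer neurons are known for immediate early genes such as Fos, Arc and Egr1, which are switched on within minutes of synaptic activity. Interneurons there release peptides such as vasoactive intestinal peptide (Vip), neuropeptide Y (Npy) and cortistatin (Cort) beside GABA.

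Promoters are shown for genes that lead the results below, in order to let their known control elements be seen. Fos, Nr4a1, Junb and Dusp1 are immediate early genes that were lower in O-Ctrl than in Y-Ctrl, and Gbp2 and Igtp are interferon-induced genes that were higher in O-Ctrl than in the other 2 sections. Each line gives the 250 bases before the start site in RefSeq, build GRCm38.p6, 5′ to 3′ on the gene's strand. Fos lies at chr12:85473640-85473889 (plus strand), Nr4a1 at chr15:101266596-101266845 (plus), Junb at chr8:84978749-84978998 (minus), Dusp1 at chr17:26508473-26508722 (minus), Gbp2 at chr3:142620413-142620662 (plus) and Igtp at chr11:58199306-58199555 (plus). Capitals mark the letters TGACG, the core of the cyclic AMP response element, on either strand in the first 4 promoters. In the last 2 they mark GAAA, any 2 bases and GAAA again, a form of the interferon-stimulated response element, and TTCNNNGAA, the gamma-activated site, again on either strand.
Fos: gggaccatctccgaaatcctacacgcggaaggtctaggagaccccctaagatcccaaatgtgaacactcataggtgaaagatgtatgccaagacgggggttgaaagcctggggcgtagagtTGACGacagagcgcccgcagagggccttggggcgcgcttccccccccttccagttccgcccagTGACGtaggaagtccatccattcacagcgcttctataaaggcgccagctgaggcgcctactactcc
Nr4a1: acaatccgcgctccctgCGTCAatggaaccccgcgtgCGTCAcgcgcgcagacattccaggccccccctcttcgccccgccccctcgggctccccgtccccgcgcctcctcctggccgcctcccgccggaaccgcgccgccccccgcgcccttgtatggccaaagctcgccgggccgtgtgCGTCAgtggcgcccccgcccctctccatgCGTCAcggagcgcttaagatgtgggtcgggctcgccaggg
Junb: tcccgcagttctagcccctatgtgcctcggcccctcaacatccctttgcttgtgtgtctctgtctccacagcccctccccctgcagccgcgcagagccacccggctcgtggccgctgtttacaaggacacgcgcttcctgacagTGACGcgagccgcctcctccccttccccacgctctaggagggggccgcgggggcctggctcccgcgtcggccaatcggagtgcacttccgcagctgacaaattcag
Dusp1: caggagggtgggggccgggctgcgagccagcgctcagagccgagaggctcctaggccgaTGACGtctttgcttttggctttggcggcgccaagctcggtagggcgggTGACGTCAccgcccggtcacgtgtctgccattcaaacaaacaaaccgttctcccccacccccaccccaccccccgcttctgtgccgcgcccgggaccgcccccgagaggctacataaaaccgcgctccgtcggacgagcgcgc
Gbp2: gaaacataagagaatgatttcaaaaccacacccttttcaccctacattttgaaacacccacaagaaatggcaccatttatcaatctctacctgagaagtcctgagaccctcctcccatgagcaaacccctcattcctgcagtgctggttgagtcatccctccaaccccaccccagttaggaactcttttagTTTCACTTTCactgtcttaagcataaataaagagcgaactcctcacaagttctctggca
Igtp: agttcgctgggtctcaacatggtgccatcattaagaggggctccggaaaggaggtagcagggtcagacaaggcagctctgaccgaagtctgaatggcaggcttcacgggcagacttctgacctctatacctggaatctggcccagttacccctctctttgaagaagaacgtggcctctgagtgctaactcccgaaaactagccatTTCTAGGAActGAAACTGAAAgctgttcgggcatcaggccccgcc
TGACG occurred 2 times in the Fos window, 4 times in Nr4a1, 1 time in Junb and 3 times in Dusp1, and 17.8% of the 32851 mouse promoters of this length hold it at least once. A pair of the matches in Dusp1 overlap and form the full element TGACGTCA at positions -143 to -136 from the start site, which 1.55% of promoters hold. The interferon-stimulated response element was found at -59 to -50 in Gbp2 and at -34 to -25 in Igtp, against 2.98% of all promoters, and Igtp also held TTCNNNGAA at -45 to -37, against 7.02%. The window of Ifitm3, a further interferon-induced gene, was searched in the same way and held neither of these 2 elements. The CArG box, the element bound by serum response factor, was searched too and had no match in these windows of the 4 immediate early genes, while 1.47% of promoters hold one. A match describes letters and does not show binding.

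The matrices listed 4992 barcodes per section, the same list in each, and the 200 upper layer barcodes overlapped by 59 between O-Ex and O-Ctrl, by 72 between O-Ex and Y-Ctrl and by 90 between O-Ctrl and Y-Ctrl, with 34 in all 3 sections. A shared barcode is a shared array position and not a shared cell. The summed UMIs of the 200 spots were 4103588 in O-Ex, 5252727 in O-Ctrl and 5430015 in Y-Ctrl, with medians of 20933, 26725.5 and 28207.5 UMIs and of 5312.5, 5816 and 5928 genes per spot in the same order. Mitochondrially encoded transcripts took 18.1% of the UMIs in O-Ex, 19.2% in O-Ctrl and 19.0% in Y-Ctrl. The last spot taken had a score of 4.318 in O-Ex, 4.015 in O-Ctrl and 4.419 in Y-Ctrl, and the first one left out had 4.318, 4.002 and 4.416, so the rule cut through a continuous range.

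Depth differed more at the low end. In O-Ex 60 of the 200 spots had fewer than 15000 UMIs, against 18 in O-Ctrl and 39 in Y-Ctrl, and the lower quartile was 7001.75, 22672.2 and 17902.5 UMIs in that order. These shallow spots were high in genes made in the meninges, the membranes on the brain surface. Ptgds, a prostaglandin synthase made in the meninges and by oligodendrocytes, stood at 3326 counts per 1000000 UMIs (CPM) in the shallow spots of O-Ex, 7655 CPM in those of O-Ctrl and 4891 CPM in those of Y-Ctrl, against 703, 455 and 513 CPM in the deeper spots of the same sections. The summed level of 10 meningeal fibroblast genes was 105, 243 and 176 CPM in the shallow spots of O-Ex, O-Ctrl and Y-Ctrl and 23.8, 16.1 and 15.7 CPM in their deeper spots. Over all 200 spots that sum was 30.2 CPM in O-Ex, 23.04 CPM in O-Ctrl and 26.0 CPM in Y-Ctrl, with none of the 10 genes at 0, and results that moved without the shallow spots are marked below.

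**Figure D1:**
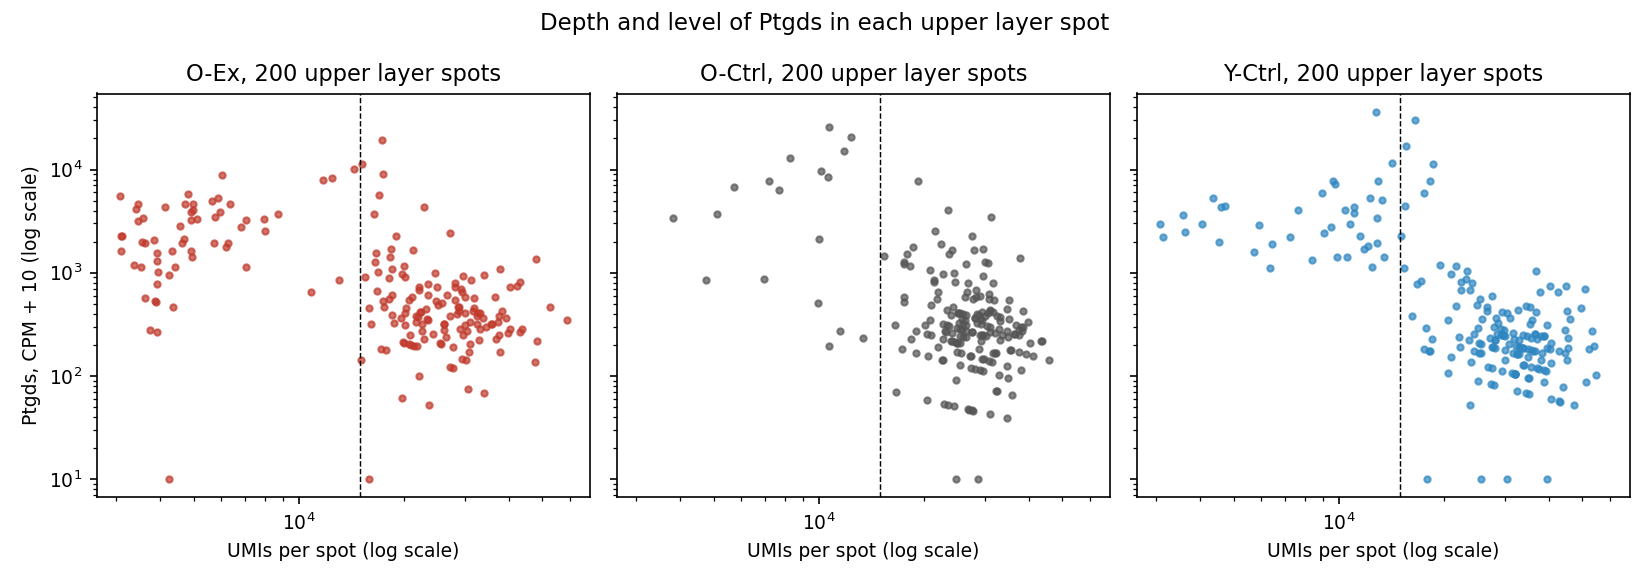
Each point is 1 upper layer spot, with its UMIs on the horizontal axis and the level of Ptgds (CPM plus 10) on the vertical axis, both on log scales, for O-Ex, O-Ctrl and Y-Ctrl from left to right. The dashed line marks 15000 UMIs; 60 spots of O-Ex, 18 of O-Ctrl and 39 of Y-Ctrl lie left of it, and most of them are high in Ptgds.

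The 5 genes of the rule stood higher in the chosen spots than in all others by construction, and their levels are given as a description. Lamp5 had 476 CPM in O-Ex (exact 95% Poisson interval 455 to 498), 516 CPM in O-Ctrl (496 to 535) and 534 CPM in Y-Ctrl (514 to 553). Calb1 had 320, 339 and 392.1 CPM, Rasgrf2 271, 241 and 242 CPM, Cux2 77.0, 60.3 and 65.9 CPM and Stard8 41.7, 36.9 and 39.6 CPM in O-Ex, O-Ctrl and Y-Ctrl. Poisson intervals here and below cover counting error only. The rule took the highest scores on these genes in each section, so likeness of their levels between sections is partly its product. Calb1 was lower in both O sections than in Y-Ctrl, and Cux2 was higher in O-Ex than in O-Ctrl.

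The label of upper layers was checked with 13 other genes of upper layer neurons, among them Cux1, a transcription factor, and Wfs1, a protein of the endoplasmic reticulum. Their summed level was 658 CPM in O-Ex, 589 CPM in O-Ctrl and 641 CPM in Y-Ctrl, against 369, 343 and 352 CPM in all other spots of the 3 sections. Spots picked in the same way for layer 5 held 325, 304 and 319 CPM of these genes and those for layer 6 held 282, 306 and 273 CPM. Genes of layer 5 summed to 146, 137 and 130 CPM in the upper layer spots, against 722, 757 and 703 CPM in the layer 5 spots. Genes of layer 6 summed to 108, 85.9 and 76.8 CPM, against 739, 758 and 745 CPM in the layer 6 spots. Myelin genes summed to 1282 CPM in O-Ex, 1174 CPM in O-Ctrl and 1182 CPM in Y-Ctrl.

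The layer 5 and layer 6 spots were picked by markers of those layers, so their high sums follow largely from the picking. All other spots together held 271, 263 and 247 CPM of layer 5 genes in O-Ex, O-Ctrl and Y-Ctrl. Of layer 6 genes they held 185, 183 and 182 CPM, so both lists were lower in the upper layer spots. These lower sums and the upper layer list carry the label, with exceptions. Layer 4 genes such as Rorb, a nuclear receptor of granular layer neurons, stood at about the same sum in the upper layer spots (141, 142 and 172 CPM in O-Ex, O-Ctrl and Y-Ctrl) as in the layer 5 spots (143, 147 and 154 CPM). The striatal list stood at 265, 238 and 228 CPM, above the 195 CPM of all other spots in O-Ex and below the 277 and 267 CPM of those in O-Ctrl and Y-Ctrl. In 23 spots of O-Ex, 18 of O-Ctrl and 19 of Y-Ctrl the markers of hippocampus, striatum, thalamus or hypothalamus summed to more than the upper layer list, and these spots were left out in an alternative.

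**Figure D2:**
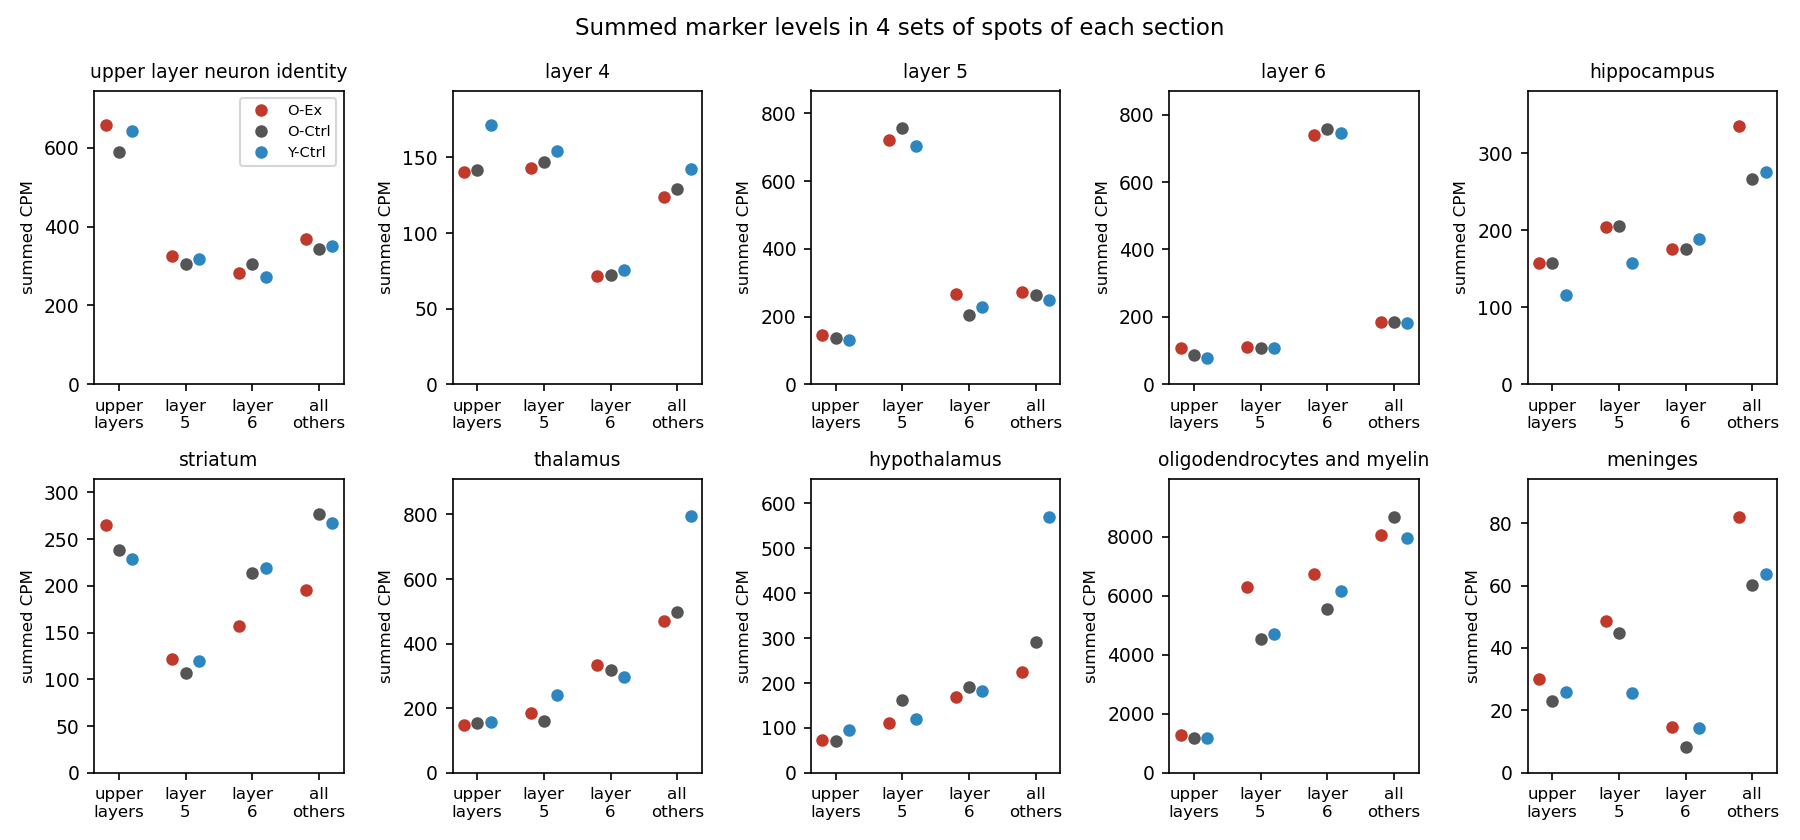
Summed CPM of 10 marker lists in the upper layer spots, the layer 5 spots, the layer 6 spots and all spots outside the upper layers (layers 5 and 6 included), with 1 point for each of O-Ex, O-Ctrl and Y-Ctrl. The upper layer list is highest in the upper layer spots (658, 589 and 641 CPM). The layer 5 and layer 6 lists are highest in their own spots, which were picked by markers of those layers.

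The genes most enriched in the chosen spots beyond the 5 of the rule were named by the mean over the sections of the log2 ratio of CPM plus 5 in upper layer spots over all other spots. Vip led with 2.10, and it is followed by Gm765 (2.03), Ddit4l (1.97), an inhibitor of mTOR signalling, Igfbp6 (1.95), a binding protein of insulin-like growth factors, and Gsg1l (1.61), a subunit of AMPA receptors. C730002L08Rik (1.61), A830009L08Rik (1.60), Dact2 (1.59), Gucy1a1 (1.59), a subunit of the nitric oxide receptor, and Kcnv1 (1.59), a modifier of potassium channels, complete the list. The spots were chosen on the same RNA, so this likeness is a description. Igfbp6 was at 225 CPM in O-Ex, 261 CPM in O-Ctrl and 283 CPM in Y-Ctrl, and Gucy1a1 at 111, 110 and 129 CPM. Both were highest in Y-Ctrl, and Igfbp6 was lowest in O-Ex.

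Measured genes, 6410 in number, were those that averaged 20 CPM or more over the 3 sections, and the upper layer spots of any 2 sections were alike in most genes. Ratios are log2 ratios of CPM plus 5, on which folds are given too, and they are described by a threshold of 1.5-fold in place of a test. Of these genes 99.2% lay within 1.5-fold between O-Ex and O-Ctrl, 99.6% between O-Ctrl and Y-Ctrl and 98.9% between O-Ex and Y-Ctrl. Of all measured genes 61.8% were higher at any size in O-Ex than in O-Ctrl and 49.2% in O-Ctrl than in Y-Ctrl, and the counts of list members below are to be read against these shares. At least 1.5-fold higher in O-Ex than in O-Ctrl were 43 genes (0.671%) and lower 7 (0.109%). With median-of-ratios scaling, which moves all ratios of this pair by -0.06, the split was 29 higher to 12 lower, that is 70.7% higher in place of 86.0%. At least 1.5-fold higher in O-Ctrl than in Y-Ctrl were 9 genes (0.14%) and lower 16 (0.25%). Between O-Ex and Y-Ctrl 48 genes (0.749%) were higher and 20 (0.312%) lower, 70.6% higher, against 30 higher to 28 lower and 51.7% with that scaling. O-Ctrl enters the first pair and also the second, so ratios of these comparisons are not independent of each other and are set side by side only.

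**Figure D3:**
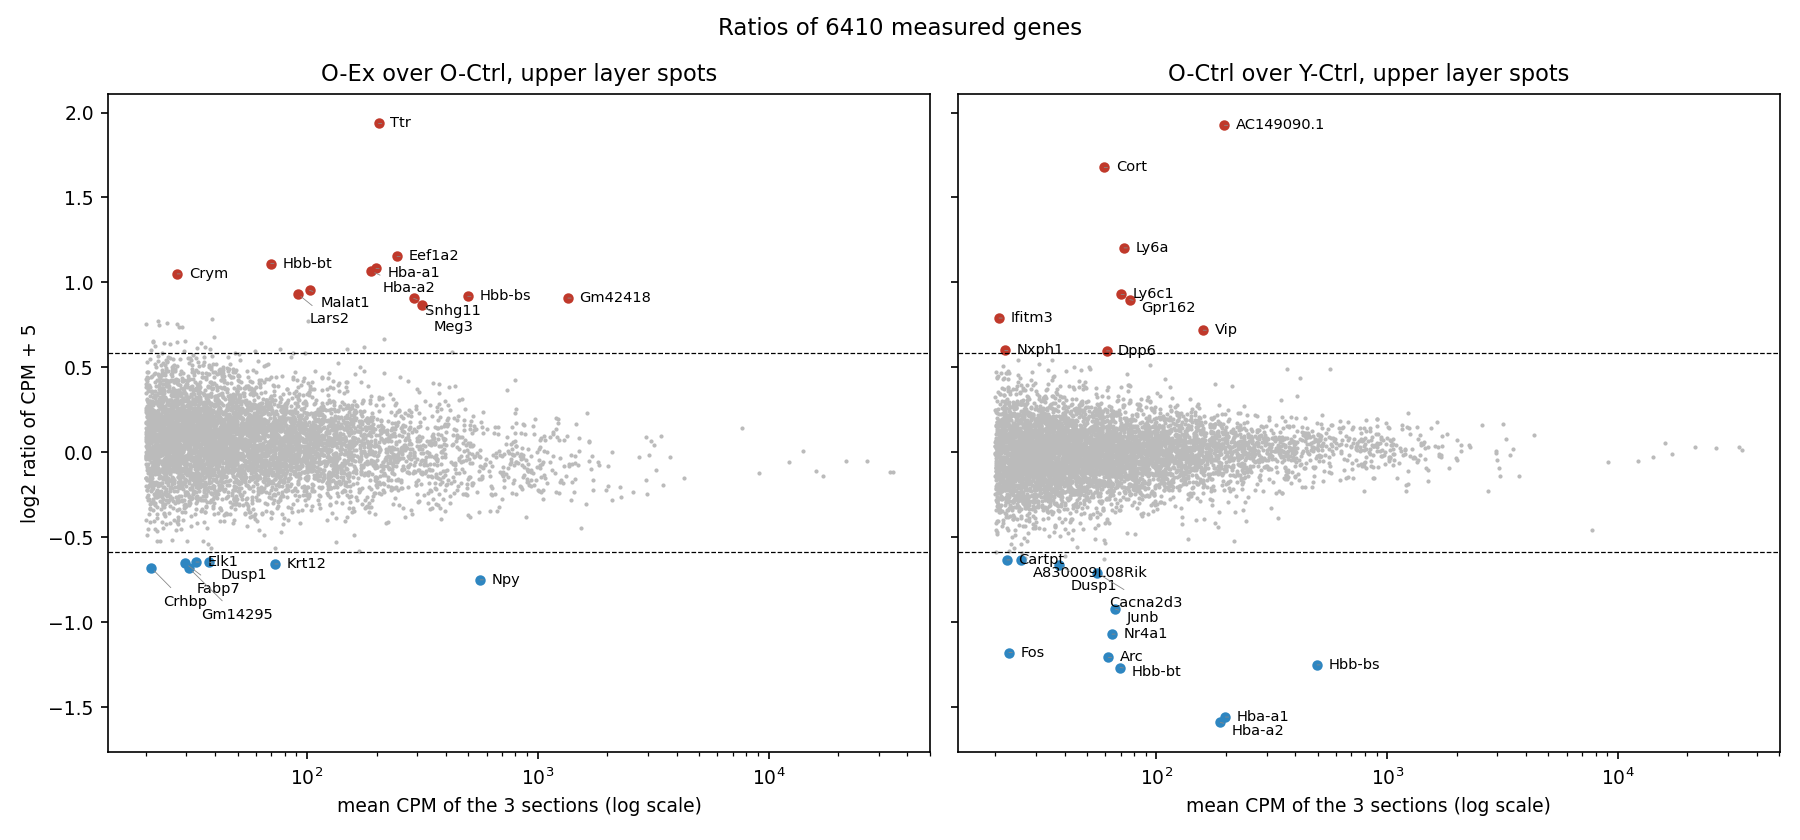
Log2 ratio of CPM plus 5 against the mean CPM over the 3 sections (log scale) for 6410 genes of the upper layer spots, O-Ex over O-Ctrl on the left and O-Ctrl over Y-Ctrl on the right. Dashed lines mark 1.5-fold, and coloured points are the genes named by rule that pass it, from Ttr at 1.94 and Npy at -0.75 on the left to AC149090.1 at 1.92 and Hba-a2 at -1.59 on the right.

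Immediate early genes were lower in O-Ctrl than in Y-Ctrl without exception among the 10 that were measured. Their summed level over all 18 genes of the list was 944 CPM in O-Ex, 759 CPM in O-Ctrl and 1192 CPM in Y-Ctrl. Of the 10, 5 were at least 1.5-fold lower in O-Ctrl than in Y-Ctrl and none was higher, with a median log2 ratio of -0.59 beside -0.00 for all genes. Fos passed the filter only through Y-Ctrl, so these counts are a description of the genes that passed it. Of all 18 members, 16 had a lower level in O-Ctrl than in Y-Ctrl and 2, Fosb and Nr4a3, a higher one. The 95% intervals did not meet for 9 of the 10, all lower, where 3.93% of all genes were lower with intervals apart. The other spots of the same sections had a median of -0.49 for these genes, so the list was lower there too.

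Arc, whose protein moves RNA between neurons and removes AMPA receptors from synapses, stood at 31.2 CPM in O-Ex (26.0 to 37.1), 44.7 CPM in O-Ctrl (39.2 to 50.8) and 110 CPM in Y-Ctrl (101 to 119). Fos, a subunit of the AP-1 transcription factor, stood at 9.75 CPM in O-Ex (6.96 to 13.3), 16.2 CPM in O-Ctrl (12.9 to 20.0) and 42.9 CPM in Y-Ctrl (37.6 to 48.8). Y-Ctrl was high and both O sections low in each, with log2 ratios of O-Ctrl over Y-Ctrl of -1.21 for Arc and -1.18 for Fos. Nr4a1, an orphan nuclear receptor, had 40.2, 47.4 and 105 CPM in O-Ex, O-Ctrl and Y-Ctrl (-1.07), and Junb, another AP-1 subunit, 43.6, 52.2 and 103 CPM (-0.92). Dusp1, a phosphatase that switches off MAP kinases, had 20.5, 34.8 and 58.0 CPM, lowest in O-Ex, with a log2 ratio of -0.66 for O-Ctrl over Y-Ctrl and -0.65 for O-Ex over O-Ctrl. Junb overlaps Prdx2 and Dusp1 overlaps Ergic1 on the opposite strand, and no source used here states whether the counting used strand. Less RNA per cell and fewer cells of a type cannot be told apart in such spots.

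A second set of the same list did not follow that order. Egr1, a zinc finger transcription factor induced by synaptic activity, stood at 257 CPM in O-Ex (242 to 273), 160 CPM in O-Ctrl (150 to 172) and 232 CPM in Y-Ctrl (220 to 245), so O-Ctrl was the low section. Its log2 ratio was 0.67 for O-Ex over O-Ctrl and -0.52 for O-Ctrl over Y-Ctrl. Egr3 had 161, 122 and 162 CPM in O-Ex, O-Ctrl and Y-Ctrl, and Homer1, a scaffold protein of synapses with an activity-induced short form, had 209, 148 and 174 CPM. The intervals of O-Ex and Y-Ctrl met for Egr1 and Egr3, and Homer1 was higher in O-Ex with intervals apart. Fos, Arc, Nr4a1, Junb and Dusp1 had their lowest level in O-Ex, but the intervals of O-Ex met those of O-Ctrl for Fos, Nr4a1 and Junb. For Arc the log2 ratio of O-Ex over O-Ctrl was -0.46 and turned to 0.44 with spots thinned to 3000 UMIs.

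O-Ex over O-Ctrl thus gave 5 of 10 measured genes higher and 5 lower, with 1 past 1.5-fold each way, where 0.671% of all genes were past it upward and 0.109% downward, and a median of -0.05 beside 0.06 for all genes. That median turned to 0.03 when totals left out mitochondrial genes, so it gives no direction. O-Ex over Y-Ctrl gave 2 of 10 higher, a median of -0.76, and 5 past 1.5-fold, all lower, where 0.312% of all genes were. Of the 8 members under the filter, Egr2 had 3.17 CPM in O-Ex, 2.86 CPM in O-Ctrl and 14.9 CPM in Y-Ctrl, and Npas4, a transcription factor of active neurons, had 8.04, 3.81 and 14.2 CPM. Ier2 had 8.53, 10.5 and 25.2 CPM and Btg2 12.7, 12.9 and 23.9 CPM, again high in Y-Ctrl. Fosb (18.5, 11.04 and 10.3 CPM), Nr4a2 (18.0, 6.85 and 9.76 CPM), Nr4a3 (19.7, 14.1 and 12.9 CPM) and Fosl2 (20.5, 15.2 and 17.3 CPM) were highest in O-Ex.

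**Figure D4:**
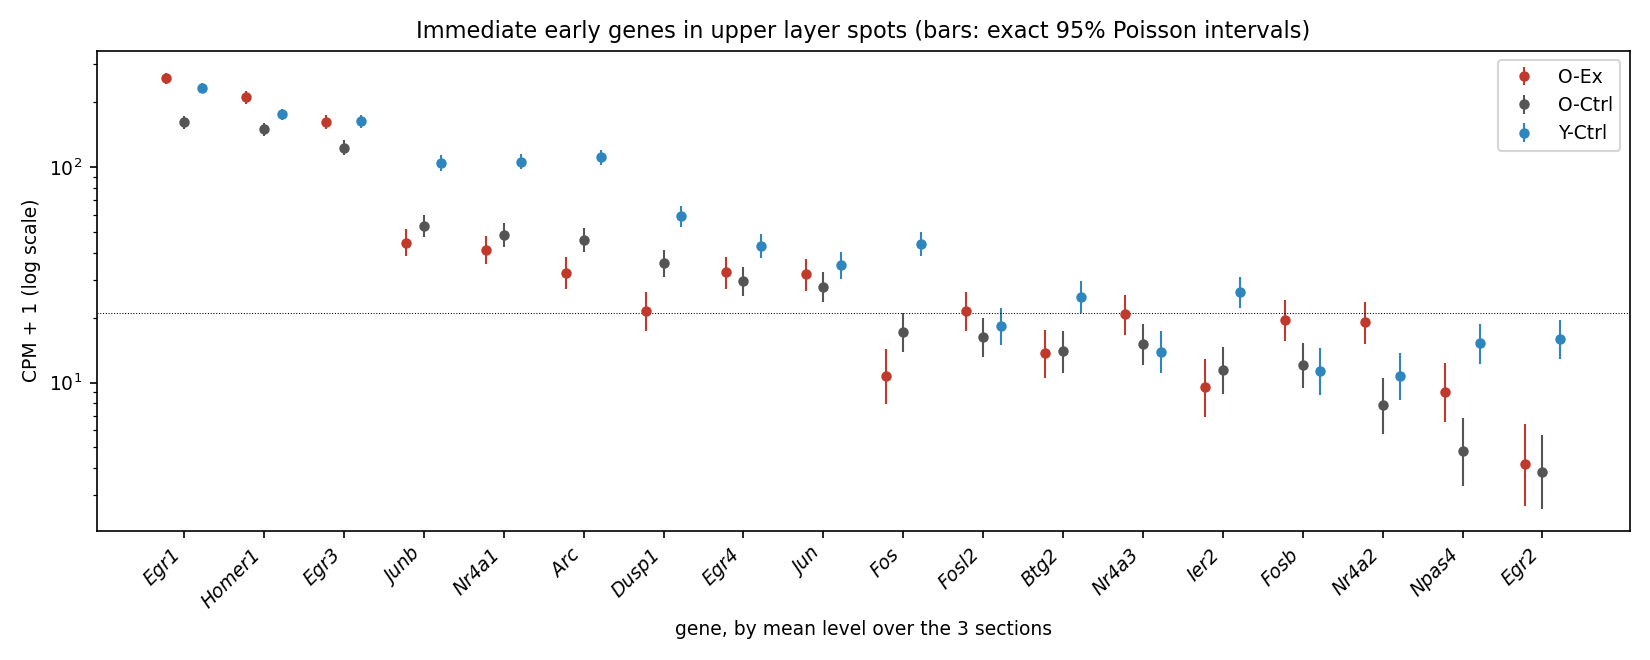
Level (CPM plus 1, log scale) of the 18 genes of the immediate early list in the 200 upper layer spots of O-Ex, O-Ctrl and Y-Ctrl, ordered by their mean, with exact 95% Poisson intervals as bars. The dotted line marks 20 CPM. Fos, Arc, Nr4a1 and Junb are high in Y-Ctrl and low in both O sections, while Egr1, Egr3 and Homer1 are low in O-Ctrl alone.

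In deeper layers Arc kept its order and O-Ctrl stayed lowest in Egr1. Arc had 23.8 CPM in O-Ex, 34.3 CPM in O-Ctrl and 84.0 CPM in Y-Ctrl in the layer 5 spots, and 27.1, 36.6 and 133 CPM in the layer 6 spots. Egr1 had 177, 93.5 and 164 CPM in the layer 5 spots and 183, 139 and 231 CPM in the layer 6 spots. Egr2 in Y-Ctrl, at 14.9 CPM in the upper layers, had 1.14 CPM in the layer 5 spots and 4.60 CPM in the layer 6 spots. Fos in O-Ex was lower than in O-Ctrl in the upper layers (-0.52) but higher in layer 5, with 17.4 CPM in O-Ex, 11.52 CPM in O-Ctrl and 31.1 CPM in Y-Ctrl. Fosb and Nr4a3 were higher in O-Ex than in O-Ctrl in the upper layers (0.55 and 0.37) but not in layer 6 (-0.05 and -0.20).

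The spread from spot to spot was wide. The summed level of the immediate early list had a median over spots of 873 CPM in O-Ex, 678 CPM in O-Ctrl and 1010 CPM in Y-Ctrl, with quartiles of 649 and 1131, 522 and 906, and 740 and 1415 CPM. The distributions overlapped, although 1 in 10 spots of Y-Ctrl lay above 1863 CPM, higher than the highest spot of O-Ctrl at 1701 CPM. Among spots with at least 15000 UMIs the log2 ratios of O-Ctrl over Y-Ctrl were -1.20 for Arc, -1.18 for Fos, -1.08 for Nr4a1 and -0.96 for Junb, close to those over all spots. In the higher-scoring 100 spots of each section Arc had 24.4, 46.9 and 99.4 CPM in O-Ex, O-Ctrl and Y-Ctrl. In the lower-scoring 100 it had 39.5, 42.2 and 122 CPM, so O-Ex and O-Ctrl were closer there. The spots were ranked by the score of the rule, so this split is a description.

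Genes that follow synaptic activity with a delay did not share the order of Fos and Arc. Of 14 such genes 10 were measured, and 5 were higher and 5 lower in O-Ctrl than in Y-Ctrl, none past 1.5-fold. Vgf, the precursor of neuropeptides that are released with neurotrophins, stood at 198 CPM in O-Ex (184 to 212), 128 CPM in O-Ctrl (119 to 138) and 122 CPM in Y-Ctrl (112 to 131). Pcsk1, a protease that matures such precursors, had 28.0, 16.0 and 20.3 CPM, so O-Ex was high in both. These were the 2 genes of the list past 1.5-fold between O-Ex and O-Ctrl, where 0.671% of all genes were that much higher. The mean of Pcsk1 passed the filter only through O-Ex, so this count is a description of the genes that passed it. Bdnf, the neurotrophin, had 50.4, 42.5 and 40.3 CPM with intervals that met between the 3 sections. Nrn1, a small membrane-anchored growth protein, had 270.5, 323 and 366 CPM, lowest in O-Ex, and Sorcs3, a sorting receptor, 33.6, 32.7 and 48.1 CPM, highest in Y-Ctrl. The median of the list for O-Ex over O-Ctrl was 0.05 and was -0.00 with median-of-ratios scaling.

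Interneuron genes were higher in the upper layer spots of O-Ctrl than in those of Y-Ctrl, all 9 that were measured of 11. Their summed level was 1710 CPM in O-Ex (1670 to 1750), 2233 CPM in O-Ctrl (2193 to 2274) and 1641 CPM in Y-Ctrl (1607 to 1676). The median log2 ratio of O-Ctrl over Y-Ctrl was 0.40, 1 gene passed 1.5-fold, and the intervals were apart for 8 of 9, where 3.51% of all genes were higher with intervals apart. For O-Ex over O-Ctrl 1 of 9 was higher, with a median of -0.18 and 5 of 9 lower with intervals apart, where 4.98% of all genes were. The other spots had medians of 0.15 and -0.13 for the same comparisons, and the layer 5 spots 0.22 and -0.02. In the layer 6 spots the medians were -0.19 and 0.05, the reverse direction. Their sums were 1234 CPM in O-Ex, 1046 CPM in O-Ctrl and 1177 CPM in Y-Ctrl, lowest in O-Ctrl.

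Cort, the precursor of cortistatin, a somatostatin-like peptide of interneurons (chr4:149125034-149126763, minus strand, mm10), stood at 72.9 CPM in O-Ex (64.8 to 81.6), 82.8 CPM in O-Ctrl (75.2 to 91.0) and 22.5 CPM in Y-Ctrl (18.7 to 26.8). Both O sections were high, 3.20-fold higher in O-Ctrl than in Y-Ctrl. In all other spots Cort had 43.3, 42.3 and 27.6 CPM, so the log2 ratio of O-Ctrl over Y-Ctrl was 1.68 in the upper layers and 0.54 outside, the largest upward gap in that comparison among genes measured in both. In the layer 5 spots Cort had 78.5, 99.3 and 52.3 CPM, and in the layer 6 spots 49.7, 40.5 and 42.3 CPM, so Y-Ctrl was lowest in layer 5 but not in layer 6. Over the alternatives tried the upper layer ratio lay between 1.26 and 1.97.

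Vip had 147 CPM in O-Ex (135 to 159), 208 CPM in O-Ctrl (195 to 220) and 124 CPM in Y-Ctrl (115 to 134), with a log2 ratio of 0.72 for O-Ctrl over Y-Ctrl in the upper layers and 0.08 outside them. Its lead in O-Ctrl depended on the spots taken: the ratio was 1.32 in the higher-scoring 100 spots and 0.12 in the lower-scoring 100. With the 200 best spots of at least 15000 UMIs it was 0.48, under 1.5-fold. Npy had 434 CPM in O-Ex (414 to 454), 733 CPM in O-Ctrl (710 to 756) and 521 CPM in Y-Ctrl (502 to 540), so O-Ctrl was high and O-Ex low, 1.68-fold lower than O-Ctrl. In the layer 6 spots Npy had 240, 219 and 251 CPM, in no such order.

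Sst, the precursor of somatostatin, had 424, 482 and 355 CPM in O-Ex, O-Ctrl and Y-Ctrl, and Gad1, the main GABA-synthesising enzyme, had 226, 235 and 178 CPM. Pvalb, the calcium buffer of fast-spiking cells, had 194, 260 and 221 CPM, and Crhbp, a binding protein of corticotropin-releasing hormone found in Sst cells, 15.8, 28.4 and 19.2 CPM. Crhbp was among the 7 genes at least 1.5-fold lower in O-Ex than in O-Ctrl, with a ratio of -0.68 in the upper layers and -0.00 outside them. Its mean passed the filter only through O-Ctrl, so its place among the 7 is a description. Nxph1, a neurexin ligand made by interneurons, had 22.2, 27.4 and 16.4 CPM, and its mean also passed the filter only through O-Ctrl. Its ratio for O-Ctrl over Y-Ctrl was 0.60, but 0.53 and so under 1.5-fold in spots of at least 15000 UMIs. The interneuron sum varied widely between spots, with a median of 1296 CPM in O-Ex, 1535 CPM in O-Ctrl and 1241 CPM in Y-Ctrl and a highest spot of 8144, 11795 and 9823 CPM.

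Excitatory neuron genes differed less. All 9 of the list were measured, and 7 were higher in O-Ex than in O-Ctrl (median 0.16) and 4 higher in O-Ctrl than in Y-Ctrl (median -0.17), none past 1.5-fold, with sums of 2234, 2206 and 2151 CPM in O-Ex, O-Ctrl and Y-Ctrl. Slc17a7, the vesicular glutamate transporter of cortical neurons, had 705 CPM in O-Ex, 650 CPM in O-Ctrl and 584 CPM in Y-Ctrl, and Camk2a, the kinase of excitatory synapses, had 355, 441 and 312 CPM, highest in O-Ctrl. Mef2c, a transcription factor, had 544, 489 and 549 CPM, lowest in O-Ctrl. Of the upper layer list 10 of 13 genes were measured, and 2 were higher in O-Ctrl than in Y-Ctrl (median -0.21, but 0.16 with spots thinned to 3000 UMIs) while 9 were higher in O-Ex than in O-Ctrl (median 0.18), where 61.8% of all genes were. Cux1, a relative of Cux2, was the 1 gene of that list lower in O-Ex than in O-Ctrl, with 60.2, 80.1 and 69.1 CPM in O-Ex, O-Ctrl and Y-Ctrl.

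The genes highest in O-Ex against O-Ctrl included neuronal noncoding RNAs and an elongation factor. Eef1a2, the translation elongation factor of neurons and muscle, stood at 363 CPM in O-Ex (344 to 382), 160 CPM in O-Ctrl (150 to 172) and 213 CPM in Y-Ctrl (201 to 226), 2.22-fold higher in O-Ex than in O-Ctrl. All 5 measured noncoding RNAs of a list of 9 were higher in O-Ex than in O-Ctrl, 4 of them past 1.5-fold, with a median of 0.87, where 61.8% of all genes were higher and 0.671% past 1.5-fold. Snhg11 had 405, 214 and 251 CPM in O-Ex, O-Ctrl and Y-Ctrl, Meg3, an imprinted RNA of neurons, 423, 230 and 290 CPM, and Malat1, an abundant nuclear RNA, 150, 74.8 and 83.1 CPM. O-Ex was the high section in each. These genes were also higher in O-Ex outside the upper layers, by 0.89 for Eef1a2, 0.77 for Snhg11 and 0.70 for Meg3, but by 0.18 for Malat1.

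Depth went with the level of some of these RNAs, and the part of RNA quality was not tested. Malat1 had 376 CPM in the shallow spots of O-Ex against 130 CPM in its deeper spots, and its log2 ratio of O-Ex over O-Ctrl was 0.81 in spots of at least 15000 UMIs, against 0.95 in all. Snhg11 (0.90) and Meg3 (0.86) kept their ratios in those spots. Lars2, the mitochondrial leucyl-tRNA synthetase, had 134 CPM in O-Ex, 67.6 CPM in O-Ctrl and 72.2 CPM in Y-Ctrl, and Gm42418, a locus that overlaps AY036118 on the other strand, had 2015, 1072 and 966 CPM. Both stood several times higher in shallow spots of every section (Lars2 at 773, 504 and 407 CPM, Gm42418 at 9932, 6261 and 5661 CPM), and without these the ratios were 0.51 for Lars2 and 0.55 for Gm42418, under 1.5-fold. Bc1, a dendritic RNA of rodents, had 7336 CPM in O-Ex, 6636 CPM in O-Ctrl and 9092 CPM in Y-Ctrl, and Neat1, a nuclear RNA below the filter, 21.9, 12.8 and 7.92 CPM. The part of nuclear RNA content in these differences was not tested.

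Crym, a thyroid hormone binding protein of cortical and hippocampal neurons (chr7:120186380-120202111, minus strand, mm10), was high in the upper layer spots of O-Ex. It had 45.6 CPM in O-Ex (39.3 to 52.6), 19.4 CPM in O-Ctrl (15.8 to 23.6) and 17.1 CPM in Y-Ctrl (13.8 to 20.98), 2.07-fold higher in O-Ex than in O-Ctrl. Its mean passed the filter only through O-Ex. Outside the upper layers Crym had 93.5, 72.8 and 73.5 CPM, a log2 ratio of 0.34 against the larger one within them. It is a gene of deeper layers, with 146, 128 and 134 CPM in the layer 6 spots, and Rprm, a layer 6 gene, was also higher in the upper layer spots of O-Ex, with 50.2, 30.3 and 23.9 CPM. Crym in O-Ex was 31.9 CPM in the higher-scoring 100 spots and 62.2 CPM in the lower-scoring 100. The part of deeper tissue in the 200 spots of O-Ex was not tested.

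Ttr, the thyroid hormone carrier made by the choroid plexus, had the largest ratio of O-Ex over O-Ctrl, 1.94. It stood at 391 CPM in O-Ex (372 to 411), 98.6 CPM in O-Ctrl (90.3 to 107) and 122 CPM in Y-Ctrl (113 to 132), against 13535, 5348 and 4363 CPM in all other spots. Its level was spread over nearly all upper layer spots: the median spot had 320 CPM in O-Ex, 86.6 CPM in O-Ctrl and 113 CPM in Y-Ctrl, and 5, 20 and 19 of 200 spots had no Ttr. The 6 choroid plexus genes beside Ttr and Enpp2 were at or under 4.63 CPM in every section, with Aqp1 at 0 in O-Ex and Kcne2, Aqp1 and Otx2 at 0 in Y-Ctrl. A count of 0 allows up to 0.731 CPM in O-Ex, 0.571 CPM in O-Ctrl and 0.552 CPM in Y-Ctrl, which are the levels of 3 UMIs.

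Haemoglobin RNA set Y-Ctrl and O-Ex apart from O-Ctrl in the upper layers. The 4 measured globin genes summed to 1021 CPM in O-Ex, 502 CPM in O-Ctrl and 1341 CPM in Y-Ctrl. The log2 ratio of this sum was 1.02 for O-Ex over O-Ctrl and -1.41 for O-Ctrl over Y-Ctrl. In layer 5, layer 6 and all other spots O-Ctrl over Y-Ctrl was -0.11, -0.05 and 0.06. O-Ex over O-Ctrl was high there too, at 1.53, 1.20 and 0.87 in the same order. O-Ex over Y-Ctrl was -0.39 in the upper layers but 1.42, 1.15 and 0.93 in those spots. The level was uneven, with a median spot at 498 CPM in O-Ex, 138 CPM in O-Ctrl and 327 CPM in Y-Ctrl and a highest spot at 29413, 19812 and 52768 CPM. Hba-a1 and Hba-a2 are near-identical copies, as are Hbb-bs and Hbb-bt, so their own counts (209, 96.0 and 292 CPM for Hba-a1, 535, 281 and 675 CPM for Hbb-bs) are uncertain and the sum is the safer value. Globin RNA is that of red blood cells, and the part of blood in other differences was not tested.

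A pair of vessel genes and some interferon-induced genes were high in O-Ctrl. Of the 7 measured endothelial genes in all, 2 were higher in O-Ctrl than in Y-Ctrl (median -0.19). A list of 16 interferon response genes, 2 of them measured, summed to 128 CPM in O-Ex (118 to 140) and 144 CPM in O-Ctrl (134 to 155). The sum in Y-Ctrl was 115 CPM (106 to 125), and the intervals of O-Ex and O-Ctrl met. Ly6a, a surface protein of endothelial cells that interferon induces, had 69.5 CPM in O-Ex (61.6 to 78.0), 105 CPM in O-Ctrl (96.3 to 114) and 42.7 CPM in Y-Ctrl (37.4 to 48.6), a ratio of 1.20 for O-Ctrl over Y-Ctrl and 1.22 in the other spots. Ly6c1, its relative, had 71.4, 92.9 and 46.4 CPM, and Ifitm3, which blocks the entry of viruses, 20.0, 28.2 and 14.2 CPM. The mean of Ifitm3 passed the filter only through O-Ctrl. Cldn5, the tight junction protein of the same vessels, ran the other way, with 47.8 CPM in O-Ex, 32.7 CPM in O-Ctrl and 48.8 CPM in Y-Ctrl.

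The 14 guanylate-binding proteins and immunity-related GTPases, which interferon-gamma induces to attack microbes inside cells, were all under the 20 CPM filter. Their sum was 37.8 CPM in O-Ex (32.1 to 44.2), 124 CPM in O-Ctrl (115 to 134) and 27.1 CPM in Y-Ctrl (22.9 to 31.8). Gbp2 had 18 UMIs in O-Ex, 103 in O-Ctrl and 11 in Y-Ctrl, which is 4.39, 19.6 and 2.03 CPM, and Igtp had 4.63, 20.9 and 5.89 CPM. O-Ctrl was high in both. Igtp overlaps Irgm2 on the same strand, so reads may be shared between them. Outside the upper layers Gbp2 had 7.66, 33.4 and 3.55 CPM, higher than in the upper layers in each section.

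Of the further genes high in O-Ctrl against Y-Ctrl, Gpr162, an orphan receptor, had 80.9 CPM in O-Ex, 98.4 CPM in O-Ctrl and 50.5 CPM in Y-Ctrl, and Dpp6, a subunit of A-type potassium channels, had 72.4, 67.2 and 42.7 CPM. Dpp6 was 0.58 and just under 1.5-fold in spots of at least 15000 UMIs. AC149090.1, on an unplaced scaffold, had 248, 275 and 68.7 CPM, and its place and possible copies make it uncertain. Jsrp1, Plxnc1 and Gm14295 passed the rule for naming but not 1.5-fold, with 23.6, 31.6 and 20.1 CPM, 38.3, 40.7 and 26.3 CPM, and 23.9, 41.3 and 27.3 CPM in O-Ex, O-Ctrl and Y-Ctrl. Gm14295, a zinc finger gene of a cluster of close copies on chromosome 2, is also uncertain, and its ratio of O-Ctrl over Y-Ctrl turned to -0.25 with thinned spots.

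Low in O-Ctrl against Y-Ctrl were Cacna2d3, a subunit of calcium channels, with 56.8 CPM in O-Ex, 40.4 CPM in O-Ctrl and 69.2 CPM in Y-Ctrl, and A830009L08Rik, an RNA enriched in the upper layer spots, with 19.7, 21.7 and 36.5 CPM. Cartpt, the precursor of a peptide of stress and appetite circuits, had 19.5, 17.7 and 30.2 CPM, and its mean passed the filter only through Y-Ctrl. Its direction depended on the spots: O-Ctrl over Y-Ctrl was -0.63 as reported but 0.94 with 400 spots per section, 0.20 with a score without Lamp5 and 0.77 with a score without Rasgrf2.

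Low in O-Ex against O-Ctrl beside Npy, Crhbp, Dusp1 and Gm14295 were Krt12, a keratin gene that overlaps A830036E02Rik on the other strand, with 53.4 CPM in O-Ex, 87.0 CPM in O-Ctrl and 77.3 CPM in Y-Ctrl, and Fabp7, the fatty acid binding protein of astrocytes, with 19.5, 33.5 and 36.1 CPM. Elk1, a partner of serum response factor that overlaps Uxt on the same strand, had 23.9, 40.2 and 35.0 CPM. Snrpg, a splicing protein (122, 185 and 197 CPM), 2610524H06Rik, Pofut2, which adds fucose to secreted proteins (28.3, 43.4 and 40.5 CPM), and Ss18l2 (104, 152 and 145 CPM) lay between -0.53 and -0.58, just under 1.5-fold. O-Ex was the lowest section in each of these 7 genes.

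Some genes differed between sections by another amount in the upper layers than in the other spots. The gap given is the upper layer log2 ratio minus that of the other spots, so a gene with a gap can differ in both. AC149090.1 had an upper layer ratio of 1.92 for O-Ctrl over Y-Ctrl, larger than its gap, and was higher in O-Ctrl outside too. For O-Ctrl over Y-Ctrl the largest gaps above the other spots after Cort were those of AC149090.1 (0.86), Rassf3 (0.82), Cox6a2, a muscle and interneuron form of a respiratory subunit (0.78), and Plxnc1, a semaphorin receptor (0.77). Rassf3 had 40.0, 54.4 and 37.0 CPM in the upper layer spots of O-Ex, O-Ctrl and Y-Ctrl and 19.9, 19.7 and 25.7 CPM in all other spots. For O-Ex over O-Ctrl large gaps were those of Penk (1.16), Cartpt (1.07), Lars2 (0.81) and Slc17a6, the vesicular glutamate transporter of the thalamus (0.78). Penk was level in the upper layers, with 85.3, 83.2 and 62.2 CPM, while all other spots had 52.2, 120 and 106 CPM, a set that holds different regions in each section. Slc17a6 had 35.8, 19.2 and 26.9 CPM in the upper layers. The spots were picked by expression and the gaps are given with no test.

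Gene lists of cell function differed little, as the plot of list members shows. Of 10 AMPA and NMDA receptor genes 9 were higher in O-Ex than in O-Ctrl (median 0.21, range over the alternatives 0.15 to 0.28), none past 1.5-fold, and 5 had intervals apart, where 8.47% of all genes were higher with intervals apart. Gria2, the subunit that keeps AMPA receptors closed to calcium, had 426 CPM in O-Ex, 334 CPM in O-Ctrl and 359 CPM in Y-Ctrl. Of 10 chaperones of the endoplasmic reticulum 9 were higher in O-Ex than in O-Ctrl (median 0.26), and Hspa5, the main chaperone of that compartment, passed 1.5-fold with 227, 146 and 154 CPM. Calr, a calcium-binding chaperone, had 312, 228 and 217 CPM. O-Ex was the high section for all 3 genes.

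Of 15 genes of glycolysis and lactate transport 13 were higher in O-Ex than in O-Ctrl (median 0.21), where 61.8% of all genes were, and 12 higher in O-Ctrl than in Y-Ctrl (median 0.11), where 49.2% were. Eno1, enolase, had 287, 236 and 195 CPM in O-Ex, O-Ctrl and Y-Ctrl and Pkm, pyruvate kinase, had 943, 788 and 689 CPM. Of 22 nuclear genes of the respiratory chain 20 were higher in O-Ctrl than in Y-Ctrl (median 0.11) and 6 higher in O-Ex than in O-Ctrl (median -0.11). Ndufa5, a subunit of complex I, had 485, 619 and 562 CPM in O-Ex, O-Ctrl and Y-Ctrl and Cox6c, a subunit of cytochrome oxidase, 2040, 2446 and 2392 CPM. Of 22 ribosomal protein genes 1 was higher in O-Ex than in O-Ctrl (median -0.07) and 17 higher in O-Ctrl than in Y-Ctrl (median 0.03). Both shifts were small, but that of O-Ex over O-Ctrl ran opposite to the median of all genes (0.06). In that pair 9 of the 22 were lower with intervals apart and none higher, where 4.98% of all genes were lower with intervals apart.

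Of 12 resting microglia genes 3 passed the filter, and of 11 MHC class I genes 3 did. The 3 measured genes of resting microglia, P2ry12 and Csf1r among them, were lower in O-Ctrl than in Y-Ctrl (median -0.39), with Csf1r, the receptor that keeps microglia alive, at 30.5 CPM in O-Ex, 32.7 CPM in O-Ctrl and 45.7 CPM in Y-Ctrl. The 3 measured MHC class I genes were higher in O-Ex than in O-Ctrl (median 0.45), with H2-K1 at 43.4, 28.9 and 22.5 CPM, though that median was 0.01 with no filter on low genes. Of 12 astrocyte genes 8 were higher in O-Ex than in O-Ctrl with a median of 0.03, a share near the 61.8% of all genes, and this median turned to -0.03 with median-of-ratios scaling. Of 11 cholesterol synthesis genes 9 were higher in O-Ctrl than in Y-Ctrl (median 0.19), among them Fdps, which makes farnesyl units, with 77.7, 70.6 and 55.1 CPM in O-Ex, O-Ctrl and Y-Ctrl.

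**Figure D5:**
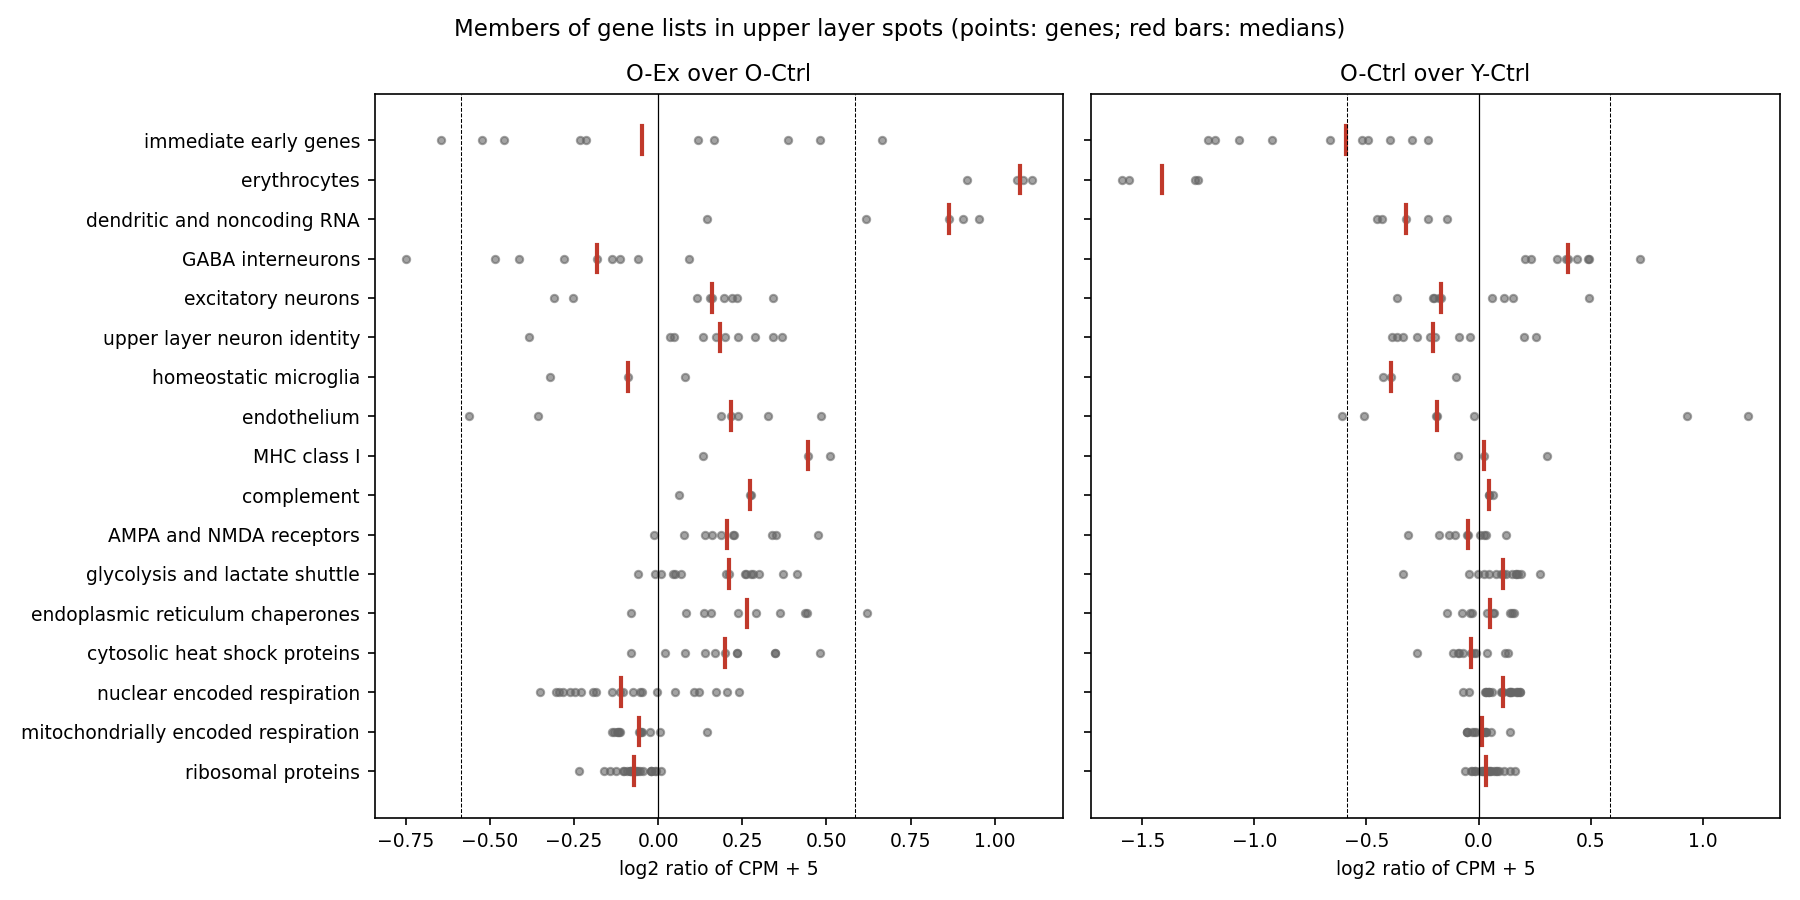
Log2 ratios of CPM plus 5 for the measured members of 17 gene lists in the upper layer spots, O-Ex over O-Ctrl on the left and O-Ctrl over Y-Ctrl on the right, with 1 point per gene, red bars at the list medians and dashed lines at 1.5-fold. Immediate early genes have a median of -0.59 on the right and -0.05 on the left, noncoding RNAs -0.33 and 0.87, and interneuron genes 0.40 and -0.18.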

How the data were processed

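Visium libraries of 3 sections were analysed, 1 per group (O-Ex, O-Ctrl, Y-Ctrl, from the titles). The authors deposited unnormalized UMI counts (31053 genes, 4992 barcodes in each section). The file headers name Space Ranger 2.0.0, and mm10 is the build per the submitters' processing notes. Spots were placed by expression alone, without positions or images, and no doublet caller was run. Members, lists and rules were chosen with earlier results of these data known.

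Spots with at least 3000 UMIs were scored and the 200 best per section summed (ties by file order). Layer 5 and layer 6 spots were picked alike with 5 markers each. The rule's 5 genes were left out of comparisons. CPM are counts per 1000000 UMIs of the summed spots, with exact 95% Poisson intervals; 3 counts are the limit of a 0. Ratios are log2 of CPM plus 5, which understates differences of low genes, over the 6410 genes that averaged 20 CPM or more. Named were the 12 highest and 12 lowest ratios with intervals apart for O-Ex over O-Ctrl and O-Ctrl over Y-Ctrl (no rule or sex-linked genes), 2 abundant and 2 extreme members of each list, all immediate early, late activity, GTPase and upper layer genes, the 5 largest gaps to other spots each way, and the 10 most enriched genes. Ptgds, Neat1, Pvalb, Aqp1, Kcne2 and Otx2 fall outside this rule and were chosen after their values were seen. Of 551 list symbols 546 matched the files. Gene coordinates are from GENCODE for mm10. Promoters came from RefSeq, with a sequence for 7 of the 10 genes listed for the search. Egr1, on chromosome 18, was left out of the search, so its promoter was not examined. Arc and Ly6a are named only. The ratio code was tested on simulated data. Python 3.11.15, numpy 2.4.6, scipy 1.17.1 and pandas 2.3.3 were used. Some genes that the rule names are not reported here.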

Additional observations from a re-analysis of the deposited data

How the results depend on the processing

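Counts of genes past 1.5-fold depended on the filter, the pseudocount and the number of spots. They are given as higher and lower for O-Ex over O-Ctrl, O-Ex over Y-Ctrl and O-Ctrl over Y-Ctrl, where the reported counts are 43 and 7, 48 and 20, and 9 and 16.
With 100 spots per section they were 87 and 24, 75 and 42, and 18 and 34. With 400 spots they were 28 and 8, 29 and 13, and 12 and 14. With each spot weighted equally they were 80 and 12, 92 and 30, and 13 and 23. With each spot thinned to 3000 UMIs, a far smaller total, they were 526 and 289, 532 and 295, and 352 and 398. With median-of-ratios scaling they were 29 and 12, 30 and 28, and 9 and 15. With totals without mitochondrial genes they were 52 and 15, 61 and 28, and 12 and 23. With a pseudocount of 1 they were 74 and 15, 77 and 32, and 12 and 23. With a pseudocount of 20 they were 15 and 1, 16 and 9, and 6 and 8. With a filter of 10 CPM they were 85 and 12, 93 and 36, and 20 and 26. With a filter of 100 CPM they were 14 and 1, 11 and 1, and 2 and 3. With no filter they were 139 and 41, 143 and 73, and 48 and 52. At 2-fold they were 6 and 0, 6 and 5, and 3 and 7. With a score without Rasgrf2 they were 46 and 9, 45 and 26, and 16 and 19.
A lower filter or pseudocount lets more noise of low genes past the fold by construction, and thinning does so through the smaller total; the other causes were not tested. Cartpt for O-Ctrl over Y-Ctrl turned to 0.94 with 400 spots, 0.20 with a score without Lamp5 and 0.77 without Rasgrf2, and the immediate early median for O-Ex over Y-Ctrl turned to 0.14 at 100 CPM, where few members are left. Single genes and list medians were followed for O-Ex over O-Ctrl and O-Ctrl over Y-Ctrl, and list medians alone for O-Ex over Y-Ctrl. The limit was the counting interval for a gene and 0.1 for a median. Within it stayed 1349 values for O-Ex over O-Ctrl, 725 for O-Ex over Y-Ctrl and 1331 for O-Ctrl over Y-Ctrl, while 137, 86 and 97 moved more. Of those that moved 21, 14 and 15 had the opposite sign, among them the immediate early median for O-Ex over O-Ctrl, -0.05 as reported and 0.48 at 100 CPM, and the upper layer list median for O-Ctrl over Y-Ctrl, -0.21 as reported and 0.16 with thinned spots. The 2 alternatives with 15000 UMIs were chosen after seeing the data. No paired analysis was possible because each group has 1 section and the titles carry no replicate numbers.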
